A study of Caenorhabditis elegans with 6 samples.

Results

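Seam lineage regulators are the transcription factors that build and maintain the lateral epidermal stem cells of Caenorhabditis elegans, the lineage from which the PVD neuron is born. The set was chosen by name and holds 7 genes: the GATA factor genes elt-1, elt-3, egl-18 and elt-6, the RUNX gene rnt-1, its cofactor gene bro-1 and the proneural gene lin-32. Of these, 6 had at least 1 probe set that names a single gene, among 17118 genes on the array, and they were read by 10 probe sets. bro-1 (clone name F56A3.5) had no probe set under its own name and is not analysed here.

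RNA was hybridised to 1-colour Affymetrix arrays in 2 groups of 3. In the PVD and OLL group, the larvae made a poly(A) binding protein, PAB-1, with a 3X FLAG tag from the ser-2prom3B promoter, and poly(A) RNA was recovered with the tagged protein from the PVD and OLL neurons. In the whole animal group, total RNA was taken from lysates of entire larvae. Both groups were at L3/L4, were grown at 25 °C and were amplified with the NuGEN WT-Pico kit. Tissue, recovery with the tagged protein and RNA type (poly(A) or total) therefore changed together. The arrays of the 2 groups are called the neuronal and the reference arrays below. The labels used here give no strain or further allele for either group. The neuronal samples are called biological replicates and the reference samples carry only a number, and the p-values reflect the scatter of these arrays, which may in part be technical.

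Seam cells are epithelial cells in a row along each side of the body that divide in a stem-like manner at the larval stages. At most divisions 1 daughter joins the surrounding hypodermis and the other stays a seam cell, a choice controlled by a Wnt/beta-catenin asymmetry pathway. In the V5 lineage a branch of the seam gives a neuroblast for the postdeirid, a small sensory organ, and PVD arises from it together with the dopaminergic neuron PDE. ELT-1 sets epidermal fate in the embryo, EGL-18 and ELT-6 hold seam fate downstream of the Wnt pathway, and ELT-3 acts in the hypodermis outside the seam. RNT-1 and BRO-1, the worm RUNX and CBF-beta proteins, promote the divisions that increase seam cell number, and LIN-32, an Atonal-type bHLH protein, gives the postdeirid neuroblast its neural fate.

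All values below are signals on a log2 scale, and a difference is the neuronal mean minus the reference mean. A probe set was called when the limma test, adjusted over all 22548 probe sets, gave an adjusted p under 0.05. Each array had a no-target level, the 95th percentile of its 32 controls that read bacterial or yeast sequences. This level was 2.28 to 2.44 for neuronal and 2.95 to 3.43 for reference arrays, and all 32 controls had lower means in the neuronal group (median difference -0.50). Low signals therefore stood on a different floor in each group. Array correlations across probe sets ran from 0.954 to 0.988 within the neuronal group and from 0.938 to 0.973 within the whole animal group. The neuron markers deg-3 and des-2 differed by 4.27 and 4.09, and ser-2, the gene that lent its promoter to the tag, had means of 2.91 and 2.19 and was not called (adjusted p = 0.202). Body wall muscle RNA was present in both groups, with mean unc-54 signals of 10.68 (neuronal) and 10.21 (reference).

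In RNA from the PVD and OLL neurons, all 4 GATA genes had at least 1 probe set that rose against the whole animal. By the brightest probe set of each gene, egl-18 and elt-1 were called, while elt-3 (adjusted p = 0.134) and elt-6 (0.0766) were not. Of the 10 probe sets, 6 rose and 0 fell by limma, while an unadjusted p under 0.05 was reached by 8 in the upward and 1 in the downward direction. Over all probe sets 9.31% were called higher and 4.28% lower. The 7 GATA probe sets differed by 1.001 to 1.76, and 5 of them rose. The median over the 10 probe sets was 1.17, against -0.03 over all probe sets tested. The groups were free of overlap on 9 of the 10, as they were on 40.5% of all probe sets. Since these samples are bulk RNA, fewer cells of a type and less RNA per cell cannot be told apart.

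egl-18 gave the clearest difference. Its probe set 190079_at read 7.08, 7.12 and 7.28 on neuronal replicates 1, 2 and 3, and 5.32, 5.70 and 5.19 on the reference replicates. The lowest neuronal array stood above the highest reference array by more than the full spread of either group, and every array lay above its no-target level. The difference was 1.76 ± 0.21 (log2, limma SE, 3 arrays in each group), a 3.39-fold rise (adjusted p = 0.00518). When each array was omitted in turn, this call held in 6 of 6 runs, with an adjusted p of at most 0.0351. The second probe set, 174926_s_at, read 3.50, 3.77 and 3.98 in the neuronal group and 2.43, 2.40 and 2.64 in the whole animal, where no array reached the no-target level. It rose by 1.26 ± 0.21 (adjusted p = 0.0105), at least 1.51-fold against that level, and lost its call without neuronal replicate 2 (adjusted p = 0.0549).

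elt-6 is the next protein-coding gene after egl-18 on chromosome IV in the RefSeq annotation of WBcel235, and the GATA factors encoded by the pair act redundantly in seam cells. Probe set 175050_at read 3.81, 4.10 and 4.67 in the neuronal group and 3.00, 2.87 and 2.71 in the whole animal. The groups did not overlap, and no reference array reached its no-target level. It rose by 1.34 ± 0.26 (adjusted p = 0.0182), at least 2.05-fold. The call was lost without neuronal replicate 2 (adjusted p = 0.0677) and without reference replicate 2 (0.0552). Probe set 185110_at read 4.86, 4.24 and 3.46 in the neuronal group and 3.07, 2.98 and 3.26 in the whole animal. The groups were again apart, but replicate 3 was the lowest neuronal array here and the highest on 175050_at. Its difference of 1.08 ± 0.34 was not called (adjusted p = 0.0766), and without neuronal replicate 3 it was 1.44 and was called (adjusted p = 0.0209). With both probe sets averaged the gene differed by 1.21 (adjusted p = 0.0077).

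elt-1, which acts upstream in epidermal fate, had a single probe set, 192655_s_at. It read 4.34, 4.196 and 3.83 on the neuronal arrays and 2.63, 2.30 and 3.05 on the reference arrays. All 3 neuronal values were above every reference value, and of the reference arrays 1, replicate 3, exceeded the no-target level. The difference of 1.46 ± 0.26 (adjusted p = 0.0133) was a 2.76-fold rise as measured. The reference mean of 2.66 lay below the no-target level of every reference array (2.95 to 3.43), so the size of this fold is uncertain. Its call was lost without neuronal replicate 1 (adjusted p = 0.054) or replicate 2 (0.0635).

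elt-3, the hypodermal member of the set, was read by probe sets that differed in their call. Probe set 175801_at read 5.24, 5.48 and 5.01 in the neuronal group and 3.76, 4.27 and 3.32 in the whole animal, all above the no-target level and with no overlap. It rose by 1.46 ± 0.28 (adjusted p = 0.0177), a 2.75-fold difference. The call was lost without neuronal replicate 1, neuronal replicate 2 or reference replicate 1 (highest adjusted p 0.0792), after repeated quantile normalization (0.0656) and after cyclic loess (0.0556). The brighter probe set, 193640_s_at, read 7.55, 6.998 and 6.94 against 6.76, 6.47 and 5.25. Its groups did not overlap either, yet the gap between them was small and reference replicate 3 stood far below the other reference arrays. The difference of 1.001 ± 0.40 was not called (adjusted p = 0.134), and it was 0.55 without reference replicate 3 (adjusted p = 0.193). With both probe sets averaged the gene differed by 1.23 (adjusted p = 0.0392).

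**Figure D1:**
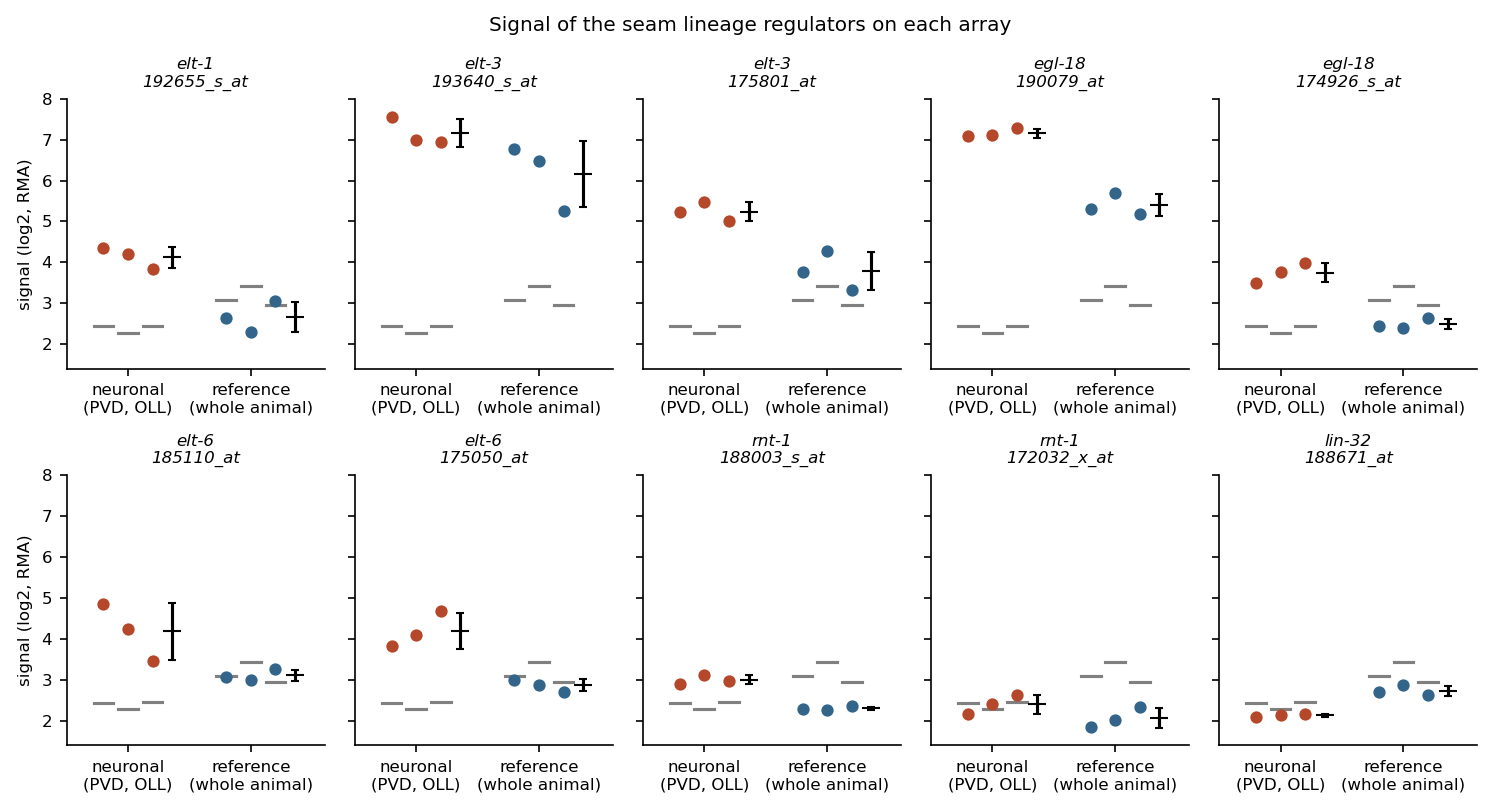
Signal (log2, RMA) of each of the 10 probe sets on the 3 neuronal arrays (red) and the 3 reference arrays (blue), with replicates 1, 2 and 3 from left to right. Grey ticks are the no-target level of that array and black bars the mean ± SD; egl-18 on 190079_at is at 7.08 to 7.28 in the neuronal group and 5.19 to 5.70 in the whole animal, while lin-32 lies under the grey ticks on all 6 arrays.

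The RUNX gene rnt-1 was read near the floor of the arrays. Probe set 188003_s_at read 2.90, 3.11 and 2.96 on the neuronal arrays, above their no-target levels, and 2.27, 2.27 and 2.35 on the reference arrays, below theirs. The groups were well apart, with an SD of 0.11 in the neuronal group and 0.05 in the whole animal. The difference of 0.70 ± 0.18 passed the test (adjusted p = 0.042), but no fold is given, because the neuronal mean of 2.99 did not exceed the whole animal no-target level. The call held in 1 of the 6 runs that omitted an array, that without reference replicate 3 (adjusted p = 0.0484), and reached 0.162 without neuronal replicate 2. It was also lost with arrays centred on their medians (0.50, adjusted p = 0.108) and when the dimmest 25% were filtered out (adjusted p = 0.0619). The other probe set, 172032_x_at, read 2.16, 2.40 and 2.62 against 1.84, 2.01 and 2.33. Its groups overlapped, and it was not called (0.34 ± 0.22, adjusted p = 0.324). With both probe sets averaged the gene differed by 0.52 and was not called (adjusted p = 0.096).

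lin-32, the proneural gene that starts the postdeirid branch, was the 1 member whose mean was lower in the neuronal group. Probe set 188671_at read 2.08, 2.13 and 2.15 on the neuronal arrays and 2.71, 2.86 and 2.62 on the reference arrays. Neither group overlapped the other, but all 6 values were below the no-target level of their array, so lin-32 transcript was not detectable above that level in either group. The difference of -0.61 ± 0.18 was not called (adjusted p = 0.0638). The no-target controls differed by -1.28 to -0.15, and 9 of the 32 had a more negative difference than lin-32. With arrays centred on those controls, an alternative chosen after seeing the data, lin-32 differed by -0.16. It was called lower with arrays centred on their medians (-0.81, adjusted p = 0.0373), with an intensity trend and robust prior (-0.61, adjusted p = 0.0446) and with both arrays numbered 3 left out (-0.68, adjusted p = 0.0476).

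**Figure D2:**
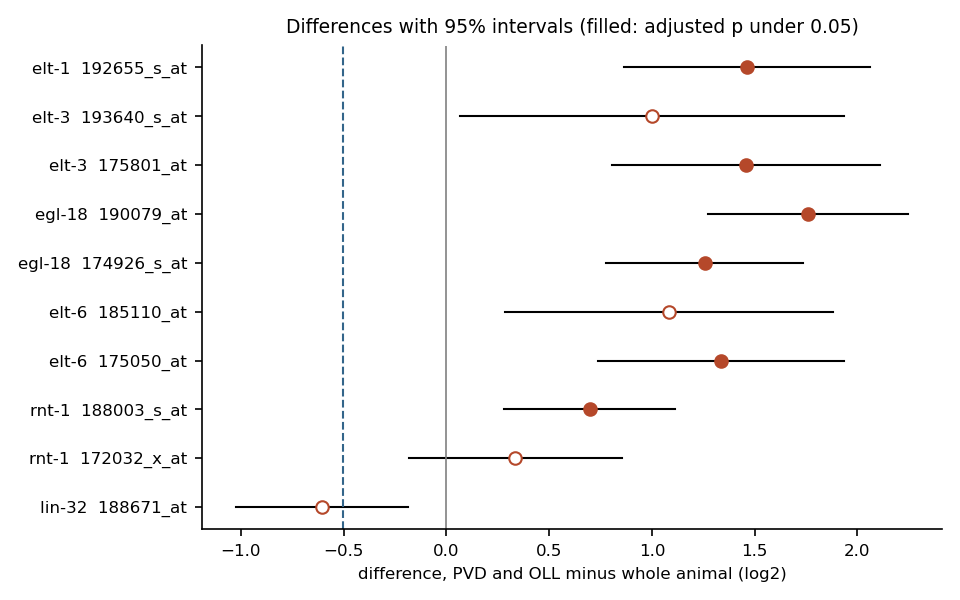
Difference in signal (log2, PVD and OLL minus whole animal) of each probe set, with limma's 95% interval as a line. Filled points passed the test (adjusted p under 0.05), and the dashed line is the median difference of the no-target controls, -0.50; every interval except those of rnt-1 on 172032_x_at and lin-32 lies above 0.

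Leaving out single arrays separated the members further. egl-18 on 190079_at kept its call in 6 of 6 runs, its second probe set in 5, elt-1 and elt-6 on 175050_at in 4 each, elt-3 on 175801_at in 3 and rnt-1 on 188003_s_at in 1. Without neuronal replicate 2 the number of called probe sets fell from 6 to 1, and without neuronal replicate 1 to 3. None of the 10 probe sets changed direction in any alternative run that included it.

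**Figure D3:**
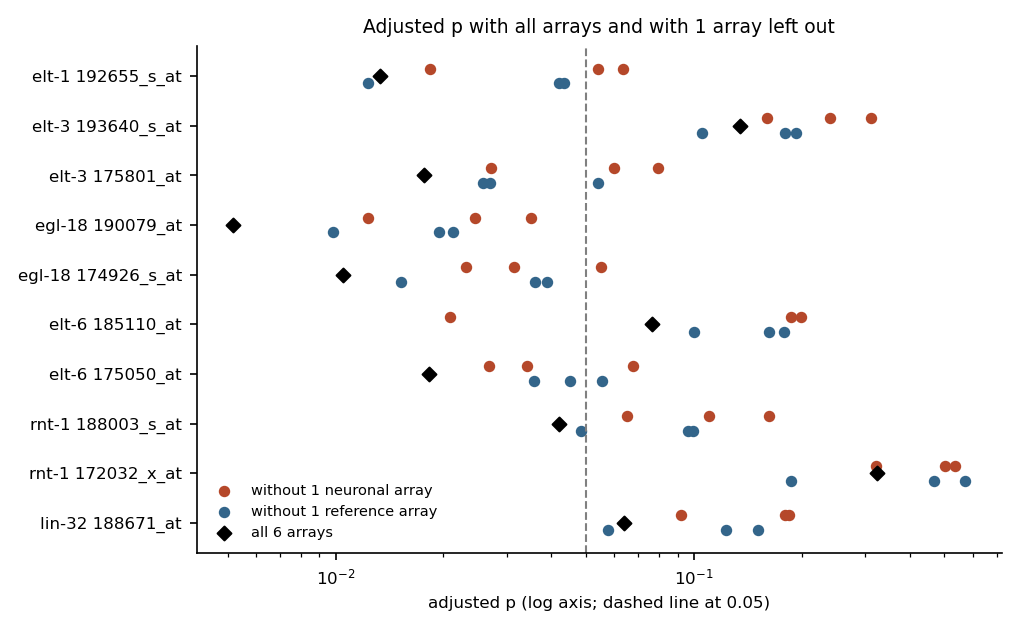
Adjusted p of each probe set (log axis) with all 6 arrays (diamonds) and with 1 neuronal array (red) or 1 reference array (blue) left out; the dashed line is the threshold of 0.05. egl-18 on 190079_at stays left of the line in every run (highest 0.0351), while elt-3 on 193640_s_at stays right of it (lowest 0.105).

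Other GATA factors were measured by the same arrays. Of 5 such genes, 0 were called in either direction by limma and 0 reached an unadjusted p under 0.05, with a median difference of 0.00 over the list. Each gene here and below is represented by its brightest probe set, a rule under which 8.1% of all genes were called higher and 4.66% lower, with a median of -0.07. Under the same rule 3 of the 6 seam lineage regulators rose (egl-18, elt-1 and rnt-1), with a median of 1.04, and elt-3 and elt-6 were not called. The intestinal factor genes elt-2 and elt-7 differed by 0.55 (adjusted p = 0.251) and 0.49 (adjusted p = 0.235). The other probe set of elt-2, with means of 2.93 and 2.21, passed the test (adjusted p = 0.0459). No reference array exceeded its no-target level there and the neuronal mean did not exceed the reference level, so no fold is given. The endoderm genes end-1 and end-3 and the mesendoderm gene med-1 had means under 2.8 in both groups. Whether the members differ from these genes was not tested.

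Among 20 genes of the Wnt/beta-catenin asymmetry pathway, which sets seam daughter fates upstream of egl-18 and elt-6, 3 rose and 0 fell by limma, with a median of 0.39, and an unadjusted p under 0.05 was reached by 6 upward and 1 downward. The Frizzled receptor gene lin-17 rose by 1.87 ± 0.44 (adjusted p = 0.0318), and its other probe set by 1.02 (adjusted p = 0.0336). The Nemo-like kinase gene lit-1 rose by 1.11 (adjusted p = 0.0499). Its other probe sets differed by 0.535 (adjusted p = 0.586) and 1.035 (adjusted p = 0.0738) and were not called. The Frizzled gene cfz-2 was at least 1.24-fold higher (adjusted p = 0.049). These calls were lost in 4 of 6 runs for lin-17 (adjusted p up to 0.106) and in 6 of 6 for both lit-1 (0.165) and cfz-2 (0.128). A second cfz-2 probe set differed by -0.43 (adjusted p = 0.276). The 1 gene in the downward direction was mom-5, a Frizzled gene, at -0.71 (adjusted p = 0.135), whereas a second probe set of it rose by 1.42 (adjusted p = 0.0323). pry-1, an Axin-type gene, differed by 0.57 (adjusted p = 0.116) and rose by 1.29 on its second probe set (adjusted p = 0.0415). After cyclic loess 0 of the 20 were called. pop-1, the TCF factor gene of the pathway, differed by 0.31 (adjusted p = 0.617), and the beta-catenin genes wrm-1 and sys-1 by 0.51 (adjusted p = 0.416) and -0.38 (adjusted p = 0.342).

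Of 15 other transcription factor genes of seam and V-cell patterning, 3 rose and 0 fell by limma (median 0.40; 5 and 0 at an unadjusted p under 0.05). The mid-body Hox gene lin-39 rose by 2.07 ± 0.33 (adjusted p = 0.0102), from a mean of 3.72 in the whole animal to 5.79 in the neuronal group. bed-3, a zinc finger gene, rose by 2.07 ± 0.38 (adjusted p = 0.0156) and the Meis-type homeobox gene unc-62 by 1.18 ± 0.24 (adjusted p = 0.0216). Without neuronal replicate 2 all 3 calls were lost (adjusted p = 0.0515 for lin-39 and 0.0662 for bed-3), and unc-62 was lost in 3 of 6 runs (adjusted p up to 0.0795). Its other probe set, with means of 2.18 and 2.13, differed by 0.05. mab-5, the Hox gene of the posterior V cells, differed by 0.79 (adjusted p = 0.169) and nhr-25, a nuclear receptor gene of the epidermis, by 1.12 (adjusted p = 0.121). The engrailed-type seam gene ceh-16 had means of 2.56 and 2.46 (adjusted p = 0.747). lin-22, a Hairy-type repressor gene that limits where the postdeirid forms, had means of 2.08 and 2.23 and was below the no-target level on every array (adjusted p = 0.69). unc-37, which encodes the Groucho corepressor, differed by 0.37 (adjusted p = 0.324).

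The RUNX pathway acts on seam divisions through cell cycle genes. Of 12 such genes, 3 rose and 0 fell by limma, with a median of 0.58 and with 4 and 2 at an unadjusted p under 0.05. The 2 lower ones were cdk-2, a cell cycle kinase gene, at -0.78 (adjusted p = 0.108) and lin-35, the retinoblastoma-type gene, at -0.87 (adjusted p = 0.0528). Both were called lower with arrays centred on their medians (-0.98 and -1.07), after repeated quantile normalization (-1.04 and -1.21) and after cyclic loess (-1.07 and -1.24). The other lin-35 probe set differed by -0.07 (adjusted p = 0.916). The CDK inhibitor gene cki-2 rose by 1.86 ± 0.30 (adjusted p = 0.0103) in all 6 runs with 1 array left out, while its second probe set, with means of 2.47 and 3.16, differed by -0.70 (adjusted p = 0.308). The DP-type E2F partner gene dpl-1 rose by 1.495 ± 0.30 (adjusted p = 0.0203) and lin-23, an F-box gene that restrains cell division, by 1.26 ± 0.25 (adjusted p = 0.0193). Leaving out 1 array ended the call of dpl-1 in 2 runs and of lin-23 in 3, including neuronal replicate 2 for both (adjusted p up to 0.0869 and 0.0832). The call of dpl-1 was also lost after repeated quantile normalization (adjusted p = 0.0613) and cyclic loess (0.0573). cki-1, the CDK inhibitor gene that RNT-1 represses, differed by 0.36 on its brightest probe set (adjusted p = 0.428) and was at least 1.44-fold higher on the other (adjusted p = 0.0225), where no reference array exceeded its no-target level.

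Of 12 factors and markers of the postdeirid branch and its neurons, 6 rose and 0 fell by limma, with a median of 1.20 and with 7 and 0 at an unadjusted p under 0.05. mec-3, the LIM homeobox gene of PVD, rose by 2.23 ± 0.31 (adjusted p = 0.00741), egl-44, a TEA-domain gene, by 1.95 ± 0.26 (adjusted p = 0.00633), zag-1, a zinc finger homeobox gene, by 1.78 ± 0.36 (adjusted p = 0.021) and egl-46, a zinc finger gene, by 1.75 ± 0.33 (adjusted p = 0.0159). ahr-1, the aryl hydrocarbon receptor gene, was at least 1.64-fold higher (adjusted p = 0.00718). Also called was unc-86, the POU homeobox gene needed for mec-3 expression, which rose by 1.36 (adjusted p = 0.00948). mec-3, egl-44 and ahr-1 held in 6 of 6 runs. The second probe sets of egl-44 (1.149, adjusted p = 0.0642) and egl-46 (1.411, adjusted p = 0.134) were not called. Of 6 further probe sets of genes in this list, 0 were called. Calls were lost for zag-1 in 3 runs (up to 0.0725), for egl-46 in 3 (0.0702) and for unc-86 in 1 (0.0515), each of them including the run without neuronal replicate 2. After repeated quantile normalization zag-1 was not called (adjusted p = 0.0548). Part of this list is known in PVD from follow-up of expression profiles, so its count is not independent evidence. Dopaminergic genes of PDE, which arises from the same branch, were not called: cat-2, tyrosine hydroxylase, had means of 3.06 and 2.93 (adjusted p = 0.723) and dat-1, the dopamine transporter, 2.58 and 2.62 (adjusted p = 0.918).

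hlh-2, the E protein gene whose product pairs with LIN-32, had means of 2.93 in the neuronal group and 2.80 in the whole animal, with a difference of 0.14 ± 0.29 (adjusted p = 0.768). Among 9 other proneural bHLH genes, hlh-2 included, limma called 0 in either direction, with a median of 0.00. At an unadjusted p under 0.05 there was 1 gene up and 1 down. All 9 had means under 3 in both groups and 5 were below the no-target level on all 6 arrays, as lin-32 was. cnd-1, a NeuroD-type gene, had means of 2.40 and 1.92 (adjusted p = 0.121), and ngn-1, the neurogenin gene, 2.24 and 2.68 (adjusted p = 0.14). After cyclic loess 1 of the 9 was called higher.

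Most products of seam cells were not called. Of 10 measured seam genes, 1 rose and 2 fell by limma and 7 were not called, with a median of -0.18, against 8.1% called higher and 4.66% called lower over all genes. wrt-2, a warthog gene of the hedgehog-related family, rose by 2.59 ± 0.45 (adjusted p = 0.0133, and 0.061 without neuronal replicate 2). grd-5, a groundhog-like gene, fell by 1.84 ± 0.24 (adjusted p = 0.00624) and kept its call in 6 of 6 runs. cut-3, a cuticlin gene, was called lower at the floor of the arrays, with means of 2.12 and 3.09 and a difference of -0.97 (adjusted p = 0.0266). No fold is given, because that difference lies within the range of the no-target controls, -1.28 to -0.15. Its call was lost in 3 of 6 runs (up to 0.103), after repeated quantile normalization (0.0658) and after cyclic loess (0.0512). grd-10 had means of 9.30 and 9.87 and grd-3 means of 6.78 and 6.35, and neither was called (adjusted p = 0.143 and 0.317). The summed signal of the 10 genes, taken off the log scale, ran from 1013 to 1403 on the neuronal arrays and from 1643 to 2313 on the reference arrays. Most of this sum came from grd-5 and grd-10, the brightest of the 10 (reference means 9.90 and 9.87). It therefore does not describe the seam list as a whole.

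Hypodermal genes differed in sign. Of 13 measured, 5 rose and 1 fell, with a median of 0.41. The cuticle collagen genes dpy-8 and dpy-2 rose by 3.78 ± 0.37 (adjusted p = 0.00439) and 2.02 ± 0.46 (adjusted p = 0.0302). lin-26, an epidermal zinc finger gene, rose by 1.56 ± 0.42 (adjusted p = 0.0477) and wrt-4, another warthog gene, by 1.38 ± 0.32 (adjusted p = 0.0301). rol-6, a collagen gene, differed by 1.15 (adjusted p = 0.0456), and col-19, the adult collagen gene, fell by 2.92 ± 0.62 (adjusted p = 0.0231). dpy-8 kept its call in 6 of 6 runs. Calls were lost for dpy-2 in 4 runs (up to 0.0983), lin-26 in 4 (0.154), wrt-4 in 3 (0.104), rol-6 in 5 (0.143) and col-19 in 3 (0.0887), among them in every case the runs without neuronal replicates 1 and 2. After repeated quantile normalization or cyclic loess 1 of the 13 was higher. Of 4 further probe sets of these genes, 3 were called higher. They read lin-26 (1.52, adjusted p = 0.0192), dpy-2 (1.02, 0.0351) and eff-1 (at least 3.50-fold, 0.0124). The brightest eff-1 probe set was not called (0.13, adjusted p = 0.742), nor was the further probe set of sqt-3 (0.92, 0.147). The collagen dpy-7 (means 6.21 and 5.66, adjusted p = 0.26) and dpy-13 (12.14 and 12.18, adjusted p = 0.917) were not called. The summed signal ran from 9269 to 12009 on the neuronal arrays and from 12144 to 12327 on the reference arrays. Most of this sum came from dpy-13, sqt-3 and nlp-29 (reference means 12.18, 12.08 and 11.36), none of them called. It therefore does not describe the hypodermal list as a whole. No reference array exceeded its no-target level for cut-5, cut-6 and ceh-16 of the seam list and wrt-8 of the hypodermal list. The part of epidermal RNA in the differences of elt-1, elt-3, egl-18, elt-6 and rnt-1 was not tested.

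Marker lists of other tissues were read on the same arrays. Of 11 PVD and OLL markers 8 rose and 0 fell (median 1.36), and of 8 pan-neuronal genes 4 rose and 0 fell (median 1.49). The lists were chosen with earlier results of these data known, so the PVD and OLL count is not independent evidence. Of 6 body wall muscle genes 1 rose and 1 fell (median 0.13), of 5 pharyngeal genes 1 rose and 0 fell (median 0.36), and of 8 intestinal genes 0 rose and 2 fell (median 0.23). The muscle gene that rose was myo-3 (1.045, adjusted p = 0.0188) and the muscle gene that fell was unc-27 (-0.774, adjusted p = 0.0458). The pharyngeal gene that rose was pha-4 (3.23, adjusted p = 0.0134). With 1 array left out, the call was lost in 3 of 6 runs for myo-3, 6 for unc-27 and 1 for pha-4. The 2 intestinal genes that fell were the yolk protein genes vit-2 and vit-6. On reference replicates 1, 2 and 3 vit-2 read 7.06, 7.15 and 9.98, and vit-6 read 7.15, 6.67 and 9.88. The adult collagen gene col-19 was also highest on replicate 3 (5.94, 5.28 and 7.96). Whether stage differed between arrays was not tested. limma called 0 of 8 germline genes in either direction, with 0 at an unadjusted p under 0.05 (median -0.03). mec-3 and unc-86 are counted in both the postdeirid and the PVD lists, ceh-16 in both seam lists, elt-2 in the GATA and intestinal lists and hlh-2 in the postdeirid and proneural lists. The 69 further probe sets of genes in these and the preceding lists, which the rule of the brightest left aside, held 20 called higher and 0 called lower, against 9.31% and 4.28% over all probe sets. Called higher were 3 of 4 for hypodermal, 1 of 3 for germline, 2 of 3 for pharyngeal and 1 of 6 for muscle genes. Intestinal genes had 1 of 5, pan-neuronal genes 3 of 4 and PVD and OLL markers 2 of 2. The counts were 4 of 14 for Wnt, 1 of 13 for other seam factor, 2 of 8 for cell cycle and 1 of 1 for other GATA genes. For the postdeirid list they were 0 of 6, for proneural genes 0 of 1 and for seam products 0 of 1. The elt-2 and hlh-2 probe sets count in each list that holds them. The lists were not tested against each other.

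**Figure D4:**
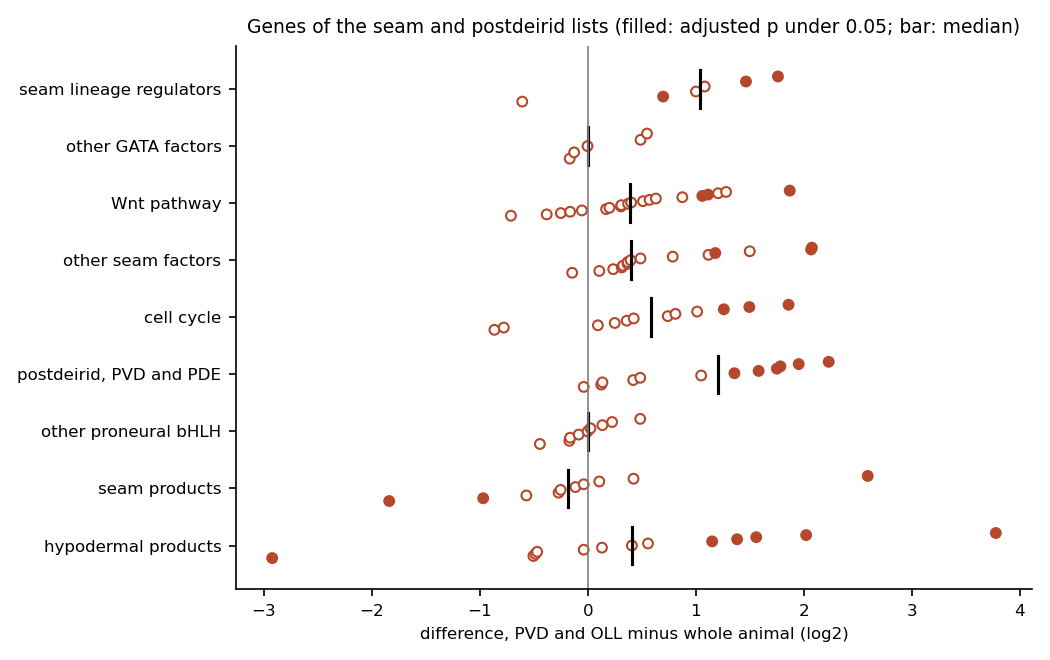
Difference in signal (log2, PVD and OLL minus whole animal) of each gene in the seam and postdeirid lists, by its brightest probe set. Filled points passed the test and black bars are list medians, which run from -0.18 for seam products to 1.20 for postdeirid, PVD and PDE genes, with the seam lineage regulators at 1.04.

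The genes whose 6 array values most resembled those of each member were found by Euclidean distance between values centred on their own mean, among genes above the no-target level on at least 3 arrays. For egl-18 they were abu-13 (distance 0.22, difference 1.89) and atx-2 (0.25 and 1.85). For elt-1 they were evl-14 (distance 0.28, difference 1.33) and C14C6.5 (0.34 and 1.56). The nearest to elt-6 were talp-3 (distance 0.19, difference 1.20) and gadr-6 (0.23 and 1.06), and the nearest to elt-3 were pat-9 (0.27 and 0.93) and mxt-1 (0.31 and 0.82). rnt-1 lay closest to W03G1.2 (distance 0.14, difference 0.76) and ttr-23 (0.15 and 0.73). The profile of lin-32 lay closest to W08G11.1 (distance 0.11, difference -0.61) and eif-3.I (0.15 and -0.50). With 6 arrays in 2 groups, such likeness takes in both the size of the group difference and the scatter within groups. The share of each was not tested. None of the 12 neighbours was another member.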

How the data were processed

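The authors deposited 1 value per probe set and array on what is taken to be a log2 scale, made with RMA (background correction, quantile normalization and summary of probes) per the submitters' processing notes. The base is read from the range of the values (1.21 to 13.9), and no source used here gives the RMA version. Of 22625 probe sets, 77 controls were left out. Names came from the array annotation, updated through a RefSeq table of WBcel235 used for names, chromosomes and gene order: 20766 probe sets had 1 name, 887 several and 895 none listed. An _s_at or _x_at probe set may read more than 1 transcript. No sequence is printed, and no sample column was unused.

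limma 3.58.1 in R 4.3.3 (lmFit and eBayes) compared 3 PVD and OLL with 3 whole animal arrays over 22548 probe sets, two-sided, with Benjamini-Hochberg adjustment; errors are moderated SE. Precision is limited by the number of arrays. An "at least" fold was computed against the no-target level where no array of a group exceeded its own. The code was tested on simulated data. The 7 members and 14 comparison lists were chosen with earlier results of these data known. Named are all members, partners and targets fixed by name, up to 4 called genes per list and direction, and the 2 nearest genes per member, not all of which are printed. Genes outside this rule (elt-2, elt-7, end-1, end-3, med-1, wrm-1, sys-1, mom-5, pry-1, cdk-2, lin-35, ahr-1, cut-5, cut-6, wrt-8, grd-3, grd-10, cat-2, dat-1, cnd-1, ngn-1, dpy-7, dpy-13, sqt-3, nlp-29, eff-1 and rol-6) and second probe sets were chosen after their values were seen. Alternatives covered scaling, a filter on dim probe sets, the variance model, averaging of probe sets, a replicate block and left-out arrays.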

Additional observations from a re-analysis of the deposited data

How the results depend on the processing

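Of 144 alternative values of the member differences, 115 kept their side of the threshold, 20 lost a call, 9 gained one and 0 changed direction. With 1 array left out, between 1 and 6 member probe sets were called higher, and between 11 and 31 list genes higher and 1 and 5 lower, against 33 and 6 of 137 with all arrays. The lowest counts of higher calls came without PVD and OLL replicate 2. The count of 1 lower list gene also came without PVD and OLL replicate 1 and without whole animal replicate 1. Arrays centred on their medians, the intensity trend with a robust prior, and leaving out both arrays numbered 3 each gave 1 member probe set called lower (lin-32), against 0 otherwise. Centring on the no-target controls, chosen after seeing the data, moved the median of all probe sets from -0.03 to 0.42 and called 58 list genes higher; centring on array medians moved it to -0.23. Under these and the other scalings the members kept their directions. Same-numbered arrays did not deviate together (correlations of deviations -0.05, -0.07 and -0.10), so the numbers gave no sign of pairing. Deviations from means of 3 arrays cannot exclude it. With a replicate block 4 member probe sets were called higher, and 25 list genes higher and 2 lower. The member calls not made with it were elt-6 on 175050_at (adjusted p = 0.0541) and rnt-1 on 188003_s_at (0.1). Signals of rnt-1 and lin-32 were near or below the no-target level. No reference array exceeded that level for egl-18 on 174926_s_at and elt-6 on 175050_at. For elt-1 and for elt-6 on 185110_at 1 reference array did. The cause of a lost call was not tested.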
